A study of Mus musculus with 2 samples.

Results

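Lysosome and cathepsin genes were followed across the cell types of GFP-sorted cortical nuclei after mild traumatic brain injury (mTBI). The group holds 10 of the 31053 genes in the count matrices: the cathepsins Ctss, Ctsb, Ctsd, Ctsl and Ctsz, the cysteine protease Lgmn (legumain), the membrane proteins Lamp1, Lamp2 and Cd63, and Grn (progranulin). The genes were chosen by name, with earlier results of these data known. Nuclei came from Atf3-CreER::Sun1-sfGFP mice (Atf3-CreER:+/wt and SUN-SfGFP:+/wt) older than 7 weeks. All animals received a closed-skull mTBI, then tamoxifen at 4 and 5 days post injury (dpi), and the ipsilateral cortex was taken at 7 dpi. In this knock-in line a cell that expresses Atf3, a stress-induced transcription factor, at the time of tamoxifen acquires GFP on its nuclear envelope, so every nucleus carries the same alleles and treatment. No nuclei of sham or uninjured cortex were analysed here, and no level can be set against an uninjured one. There were 2 libraries, 1 from a pool of 4 males and 1 from a pool of 4 females. The library named as female also carries a label of male sex and is called the female library after its name. With 1 library of each sex, sex, pool and sequencing depth cannot be told apart.

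Lysosomes are acidic organelles in which proteins, lipids and sugars are broken down. Cathepsins and legumain are their proteases, LAMP proteins line the membrane that keeps these enzymes inside, and progranulin is carried to the lysosome and cut there into granulins. Microglia, the resident phagocytes of the brain, engulf myelin and cell debris after injury and are known for a large lysosomal compartment. Neurons and other glia use the same machinery for autophagy and for the turnover of their own membranes.

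Levels are given as CPM, counts scaled to a fixed total, of the unique molecular identifiers (UMIs) summed over the nuclei of 1 library and 1 label, so that each label has 1 value in each library, and the male value is given before the female value throughout. The 15 labels with at least 50 nuclei comprised 9 neuronal subclasses (6 excitatory, 3 inhibitory), 5 non-neuronal labels and the nuclei labelled Unknown. They held 7512 of the 8171 labelled nuclei and gave 30 sums. The called barcodes numbered 4044 and 4214, with 11007313 and 23202158 UMIs, and 1 barcode sequence occurred in both. The Micro-PVM label held 1690 male and 2338 female nuclei, with a median of 1298.5 and 3012.5 UMIs. The 9 neuronal labels held 1344 and 1155 nuclei.

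The labels were checked against marker genes. In the Micro-PVM label 12 microglia markers summed to 3361 and 2301 CPM, against 93.5 and 53.4 CPM in the neuronal labels. The 4 markers of perivascular macrophages summed to 10.4 and 30.8 CPM there, with Lyve1 at 0, and 5 markers of infiltrating leukocytes to 6.02 and 3.11 CPM, with Ly6c2, Cd3e and S100a9 at 0. These nuclei are therefore called microglia. The Astro and Oligo labels carried their own markers, at 14956 and 12128 CPM for 7 astrocyte genes and 10077 and 8137 CPM for 6 oligodendrocyte genes. The VLMC label (vascular leptomeningeal cells) had 458 and 690 CPM of 5 VLMC markers, the highest of the 15 labels. Of the astrocyte markers it held mainly Slc1a3, at 1338 and 1300 CPM. Gjb6 and Gja1 were near their Astro levels, with Gjb6 at 177 and 210 CPM against 217 and 157 CPM in Astro. Gja1 was at 88.3 and 150 CPM against 124 and 148 CPM. Slc1a2 was lower, at 43.1 and 34.8 CPM against 8577 and 7265 CPM in Astro, and Gfap at 2.05 and 0.995 CPM against 340 and 530 CPM. Aqp4 and Aldh1l1 were also lower than in Astro. In the SMC-Peri label (smooth muscle cells and pericytes) 4 mural markers summed to 31.7 and 43.3 CPM, with Rgs5 and Kcnj8 at 0, and the VLMC markers to 213 and 105 CPM. The 7 astrocyte markers summed to more, at 839 and 754 CPM, against 14956 and 12128 CPM in Astro. The mural markers were higher in the VLMC label, at 43.1 and 94.5 CPM, so that SMC-Peri is used here only as the name of the label. The Unknown nuclei had 4492 and 4262 CPM of 6 neuron markers, above the 3490 and 3013 CPM of the neuronal labels.

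The promoters of 5 members are shown because they carry letters known as binding motifs of factors tied to lysosomal and macrophage genes. CACGTG is the E-box core within the element bound by TFEB and MITF, which switch on lysosomal genes, and GAGGAA, read on either strand, is a core of the sites of PU.1, the lineage factor of microglia. Sequences are from RefSeq on GRCm38.p6, 250 bases before to 50 after the start site, 5′ to 3′ on the gene's own strand, with both of these in capitals wherever they occur on either strand. They lie at chr7:142387778-142388077 (- strand) for Ctsd, chr8:13158911-13159210 (+ strand) for Lamp1, chr3:95526536-95526835 (+ strand) for Ctss, chrX:38456411-38456710 (- strand) for Lamp2 and chr10:128909095-128909394 (+ strand) for Cd63.
Ctsd: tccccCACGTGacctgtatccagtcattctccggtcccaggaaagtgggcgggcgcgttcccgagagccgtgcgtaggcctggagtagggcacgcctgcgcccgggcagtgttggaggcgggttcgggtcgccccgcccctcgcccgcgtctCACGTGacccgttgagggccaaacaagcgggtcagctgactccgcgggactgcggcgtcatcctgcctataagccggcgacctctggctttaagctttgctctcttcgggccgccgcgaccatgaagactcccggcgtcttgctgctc
Lamp1: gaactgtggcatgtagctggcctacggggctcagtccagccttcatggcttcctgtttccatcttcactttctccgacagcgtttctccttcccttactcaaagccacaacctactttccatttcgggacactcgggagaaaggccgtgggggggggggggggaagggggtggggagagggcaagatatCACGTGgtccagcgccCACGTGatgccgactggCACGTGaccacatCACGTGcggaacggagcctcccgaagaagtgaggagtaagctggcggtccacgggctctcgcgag
Ctss: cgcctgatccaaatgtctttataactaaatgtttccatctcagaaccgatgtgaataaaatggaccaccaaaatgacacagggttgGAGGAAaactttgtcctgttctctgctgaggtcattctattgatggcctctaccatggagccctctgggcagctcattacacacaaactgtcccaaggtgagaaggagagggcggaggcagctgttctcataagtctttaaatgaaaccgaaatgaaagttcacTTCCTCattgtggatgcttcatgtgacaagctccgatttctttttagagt
Lamp2: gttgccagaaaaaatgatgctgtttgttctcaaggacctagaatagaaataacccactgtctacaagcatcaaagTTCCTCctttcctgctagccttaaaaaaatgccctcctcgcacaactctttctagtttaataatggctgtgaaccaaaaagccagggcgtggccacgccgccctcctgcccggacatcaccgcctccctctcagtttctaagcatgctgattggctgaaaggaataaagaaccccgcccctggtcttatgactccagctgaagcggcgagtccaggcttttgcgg
Cd63: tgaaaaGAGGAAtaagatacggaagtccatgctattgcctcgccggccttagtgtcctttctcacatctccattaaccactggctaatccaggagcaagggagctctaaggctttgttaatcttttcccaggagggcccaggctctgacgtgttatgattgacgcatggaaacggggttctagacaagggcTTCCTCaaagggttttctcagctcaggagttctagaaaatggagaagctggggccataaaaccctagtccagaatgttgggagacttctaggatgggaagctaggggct

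On both strands CACGTG occurred in 7.15% of the 32851 mouse promoters of this length and in 4 of the 9 member genes with a promoter in the table (Ctsd, Ctsl, Lamp1 and Lgmn). The Lamp1 promoter held it at 4 places, within the 61 bases before the start site. The Ctsd promoter also held the longer TCACGTGA, which contains CACGTG and was found in 0.974% of all promoters. GAGGAA occurred in 28.3% of all promoters and in those of Ctss, Lamp2, Cd63 and Grn, and a GC box core, GGGCGG, in 35.7% and in 6 member genes. These are matches of letters in a window, not measured binding. The Ctsb promoter was not in the table.

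All 10 genes were higher in microglia than in the neuronal labels, from 54.9-fold for Ctss to 2.28-fold for Cd63. The microglial sums carried 3327 and 2764 CPM of the members together, which was 10.7 and 12.5 times the 310 and 221 CPM of the neuronal labels. Grn and the proteases other than Ctsl stood furthest apart from neurons, and Ctsl, at 2.11 on the log2 scale, lay with the membrane protein Lamp2, at 2.10. Of the 10642 genes tested, 33.2% were called higher in microglia than in neurons and 26.8% lower, at an adjusted p below 0.05, and the members were called in 10 of 10 cases as higher and in 0 as lower. The median log2 fold change was 3.28 over the members and 0.17 over all genes tested. All 10 passed the filter on low counts, also when the microglial sums were left out of it.

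**Figure D1:**
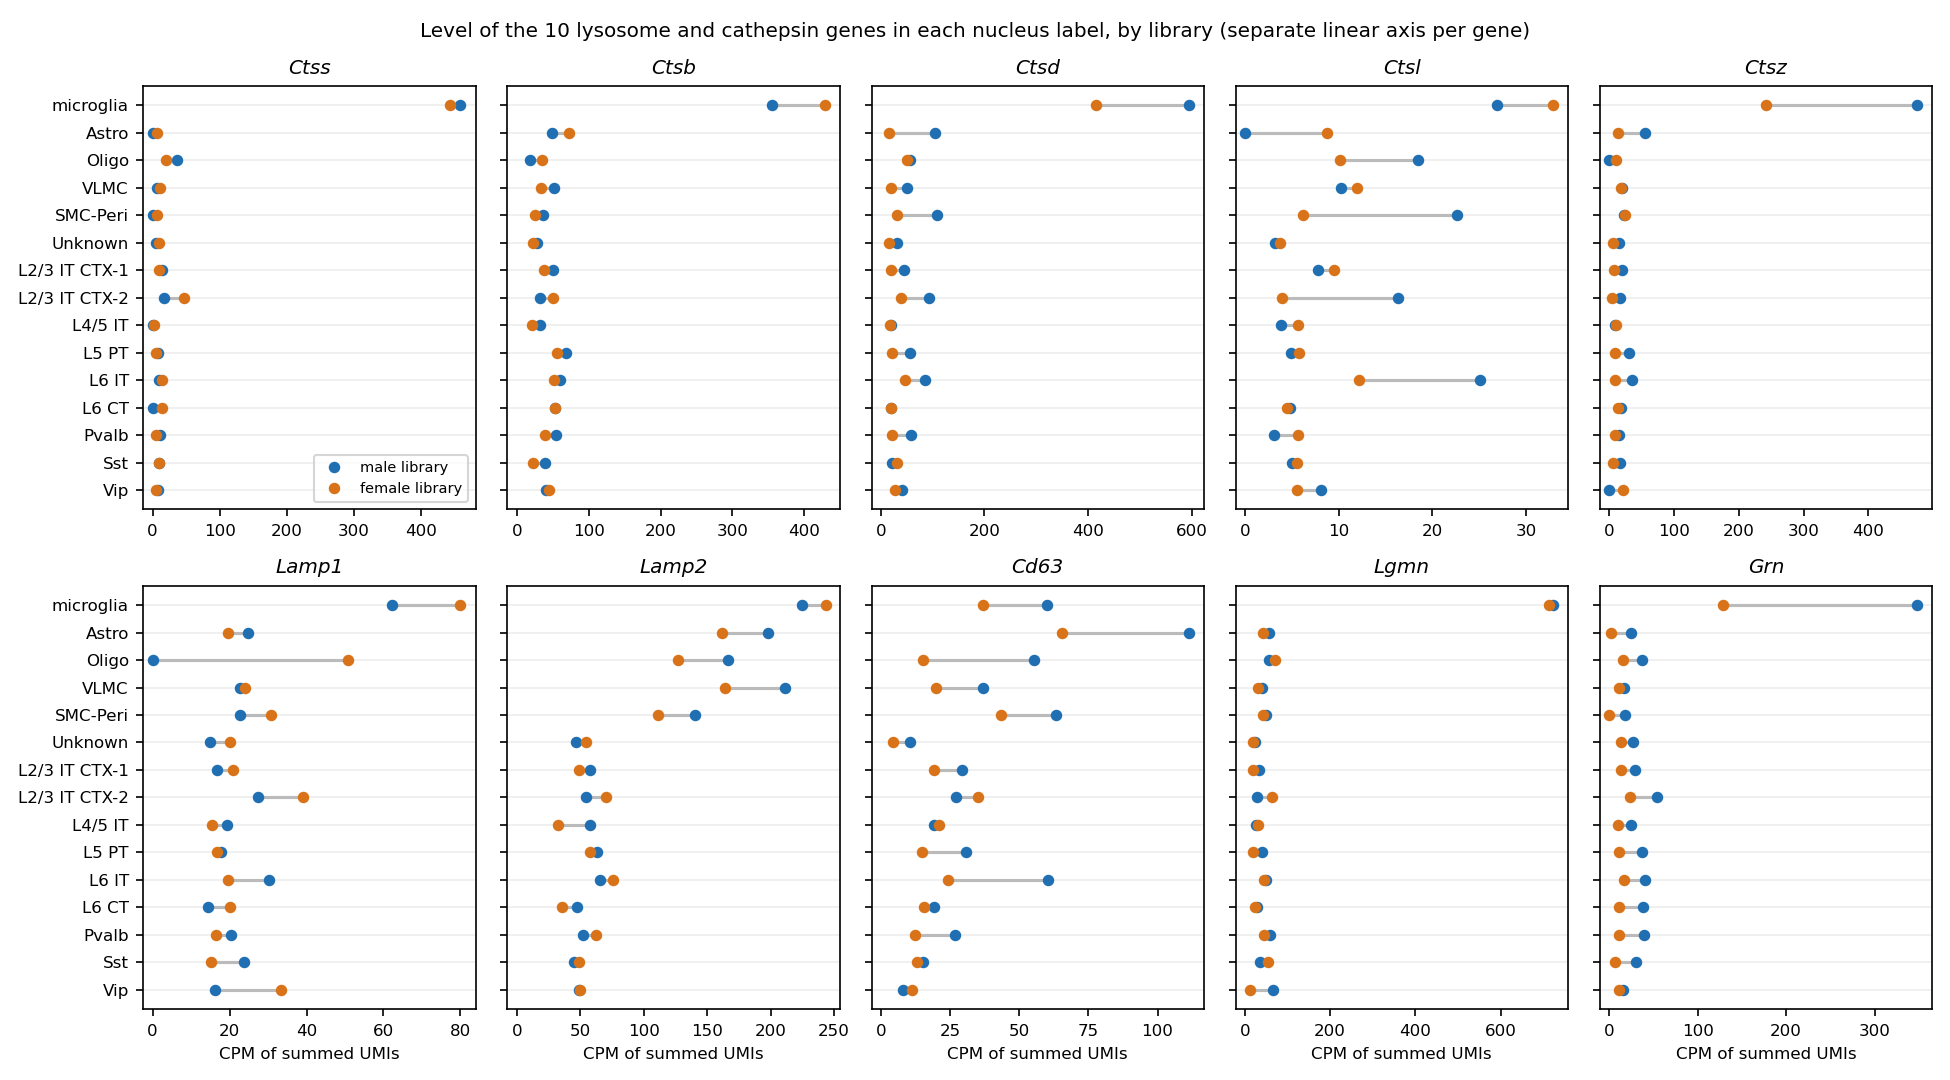
Level of each member (horizontal axis, CPM of summed UMIs, a separate linear axis for each gene) in the 15 labels, with 1 point for the male and 1 for the female library joined by a line. Microglia have the highest mean for 9 members, while Cd63 is highest in the Astro label, at 111 and 65.5 CPM.

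Ctss (cathepsin S, a cysteine protease that also trims the invariant chain of MHC class II) had the widest gap. Its level was 458 CPM in male and 442 CPM in female microglia, and 9.57 and 7.97 CPM in the pooled neuronal labels. No other label came near microglia: the 18 neuronal values ran from 0 to 46.9 CPM and the 8 values of other non-neuronal labels from 0 to 37.0 CPM. The log2 fold change against neurons was 5.78 ± 0.21 (SE, 2 libraries, edgeR quasi-likelihood test with Benjamini-Hochberg adjustment, adjusted p = 2.31e-19). Ctss lies on chromosome 3 at chr3:95526786-95556403 (GRCm38, + strand).

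Lgmn, which cuts after asparagine and activates several cathepsins, was at 723 and 713 CPM in microglia and at 38.3 and 31.0 CPM in neurons. The next label, Oligo, was at 55.5 and 71.2 CPM, far under either microglial value. The log2 fold change against neurons was 4.29 ± 0.17 (adjusted p = 9.77e-19). Ctsz, a carboxypeptidase, was at 474 CPM in male but 243 CPM in female microglia, against 21.3 and 9.0 CPM in neurons. The 2 libraries thus differed in level, yet both lay above every other label, and the log2 fold change was 4.68 ± 0.26 (adjusted p = 3.37e-15). With the profile of barcodes not called as nuclei subtracted it was 7.52, and those of Ctss, Lgmn and Grn were 8.06, 5.12 and 4.36.

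Ctsd (cathepsin D, the main aspartyl protease of the lysosome) was at 594 and 415 CPM in microglia and at 46.0 and 23.6 CPM in neurons. The log2 fold change was 3.85 ± 0.25 (adjusted p = 7.05e-14), and 7.26 with the profile of uncalled barcodes subtracted. Its level is uncertain in that the annotated gene Gm49369 overlaps it on the same strand and was counted beside it. Ctsb (cathepsin B) was at 356 and 429 CPM in microglia and at 52.5 and 42.5 CPM in neurons, with a log2 fold change of 3.16 ± 0.15 (adjusted p = 6.31e-17). Ctsl (cathepsin L) was detected sparsely, at 26.9 and 32.8 CPM in microglia and 6.55 and 6.61 CPM in neurons. Even so the microglial values did not overlap those of any other label, and the log2 fold change was 2.11 ± 0.28 (adjusted p = 1.64e-07).

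Grn was at 347 CPM in male and 129 CPM in female microglia and at 33.4 and 11.5 CPM in neurons. Within each library microglia stood about equally far above neurons, and the log2 fold change was 3.41 ± 0.32 (adjusted p = 1.87e-10). Taken 1 library at a time it was 3.29 and 3.38.

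The membrane proteins had log2 fold changes of 2.10 or less. Lamp2, which serves the lysosomal membrane and chaperone-mediated autophagy, was at 225 and 244 CPM in microglia and 56.6 and 54.0 CPM in neurons (log2 fold change 2.10 ± 0.14, adjusted p = 1.95e-13). Lamp1, an abundant glycoprotein of the same membrane, was at 62.2 and 80.0 CPM against 19.3 and 18.3 CPM (1.75 ± 0.23, adjusted p = 8.88e-08). Cd63, a tetraspanin of late endosomes and exosomes, was at 60.2 and 36.8 CPM against 26.9 and 16.2 CPM (1.19 ± 0.25, adjusted p = 0.000144). Cd63 was the member with the narrowest gap, and its neuronal values reached 60.2 CPM in the male L6 IT nuclei, which overlaps the microglial range. That value rested on 12 UMIs. The same nuclei had 146 CPM of microglia markers and 70.3 CPM of endothelial markers, against 93.5 and 9.40 CPM in the male neuronal labels together.

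**Figure D2:**
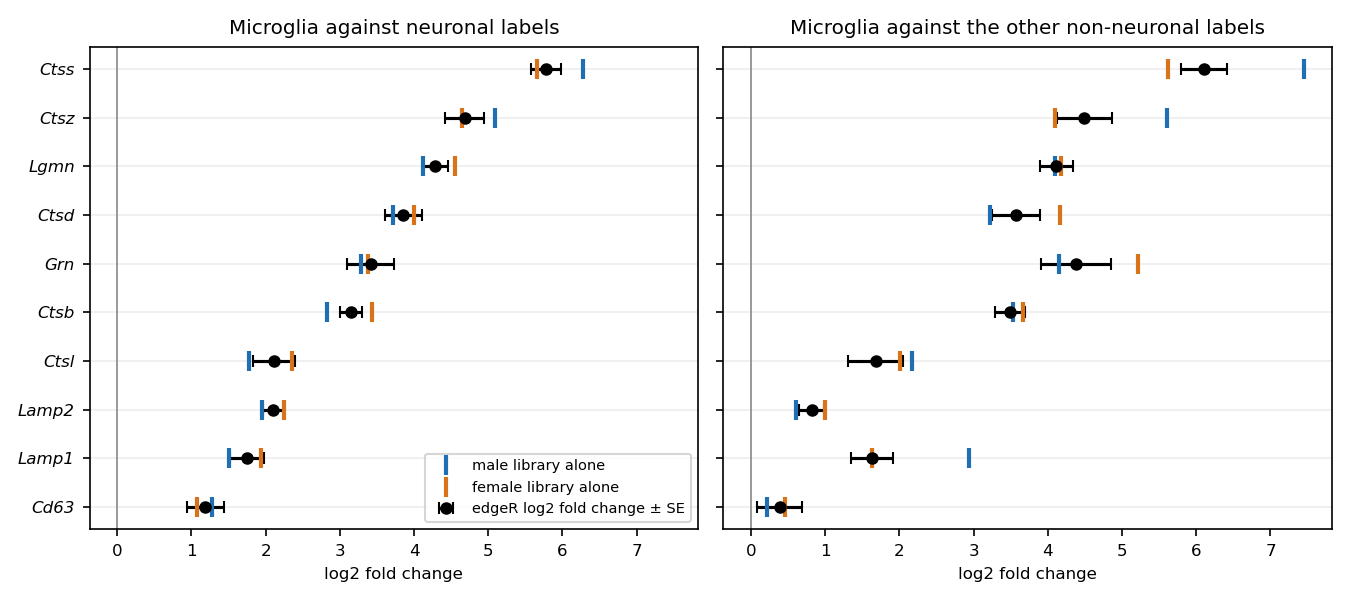
log2 fold change of each member in microglia against the neuronal labels (left) and against the other non-neuronal labels (right), as edgeR values ± SE (points and bars), with ticks for each library alone. All members lie above 0 against neurons, from 1.19 for Cd63 to 5.78 for Ctss, and Cd63 lies nearest to 0 in both panels.

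Against the 4 other non-neuronal labels 9 of the 10 members were higher in microglia, where 27.2% of all genes tested were called higher. The proteases other than Ctsl, and Grn, kept wide gaps, with log2 fold changes of 6.10 ± 0.31 for Ctss, 4.49 ± 0.37 for Ctsz, 4.38 ± 0.47 for Grn, 4.11 ± 0.22 for Lgmn, 3.57 ± 0.32 for Ctsd and 3.49 ± 0.20 for Ctsb. The gap of Lamp2 was narrow at 0.82 ± 0.17 (adjusted p = 0.000224), and those of Ctsl and Lamp1 were 1.68 ± 0.37 and 1.63 ± 0.29. Cd63 did not pass the test (log2 fold change 0.38, 95% interval -0.21 to 0.98, adjusted p = 0.328). Both contrasts use the same microglial sums.

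In the Astro, Oligo, VLMC and SMC-Peri labels Lamp2 was called higher than in neurons, and no protease passed the test. In the alternatives the Lamp2 call in SMC-Peri was lost without nuclei with microglial UMIs, at 0.71 (adjusted p = 0.0608). Ctss was called higher in Oligo by DESeq2 (adjusted p = 0.0483). Ctsb was called lower in Oligo with the profile of uncalled barcodes subtracted (-7.92, adjusted p = 0.00653), beside -0.58 in the fit reported. Ctsb was at 18.5 and 35.6 CPM in Oligo, few UMIs that the subtraction removed in both libraries. The -7.92 is therefore no estimate of size. Lamp2 was at 212 and 164 CPM in the VLMC label, 198 and 162 CPM in Astro, 166 and 127 CPM in Oligo and 141 and 111 CPM in SMC-Peri, whereas the 18 neuronal values ran from 32.4 to 75.5 CPM. None of these 8 values overlapped a neuronal one, and all lay under both microglial values. In the order of Lamp2 levels each of these labels overlapped its neighbour in the order, and the VLMC label did not overlap microglia. The log2 fold changes against the neuronal labels were 1.59 ± 0.20 for Astro, 1.44 ± 0.17 for VLMC, 1.21 ± 0.27 for Oligo and 0.90 ± 0.24 for SMC-Peri (adjusted p = 0.00294 for the last). These contrasts share the neuronal sums.

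Cd63 stood apart from the other members in that astrocytes, not microglia, had the most of it. It was at 111 and 65.5 CPM in Astro, which did not overlap the SMC-Peri values of 63.5 and 43.3 CPM below it, while SMC-Peri, microglia and L6 IT overlapped in turn. Cd63 was higher than in neurons in Astro (log2 fold change 1.91 ± 0.33, adjusted p = 2.81e-05). In SMC-Peri it was 1.08 ± 0.42 (adjusted p = 0.0402), a call that was lost in 3 alternatives at a log2 fold change of 1.06 to 1.13 (adjusted p from 0.0582 to 0.114). The share of all genes called higher than in neurons was 18.8% in Astro, where 2 members were called, 11.4% in Oligo, where 1 was, 28.0% in VLMC, where 1 was, and 19.8% in SMC-Peri, where 2 were. In each of the 4 labels the members' share thus lay near or below that of all genes.

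Grn in the VLMC and SMC-Peri labels depended on how the libraries entered the fit. It was at 16.4 and 10.9 CPM in VLMC and at 18.1 and 0 CPM in SMC-Peri, where 3 UMIs in the female library would have been 18.5 CPM. Neither passed the test without a term for the library (95% intervals of the log2 fold change -2.24 to 0.24 and -3.44 to 0.75). With the library as a replicate block Grn was lower than in neurons in VLMC (-0.91, adjusted p = 0.0208) and in SMC-Peri (-1.56, adjusted p = 0.0357).

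Between neuronal subclasses 2 contrasts were tested. Levels of single subclasses ranged from 16.9 to 92.7 CPM for Ctsd, from 3.15 to 25.1 CPM for Ctsl and from 32.4 to 75.5 CPM for Lamp2. Inhibitory against excitatory labels gave 0 calls in edgeR, where 17.4% of all genes were called in either direction, and DESeq2 also gave 0. At an unadjusted p below 0.05 there was 1 member, Cd63 (log2 fold change -0.78, 95% interval -1.41 to -0.14, adjusted p = 0.102), which ran from 8.1 to 26.8 CPM over the 6 inhibitory values and from 14.7 to 60.2 CPM over the 12 excitatory ones. With the replicate block Cd63 was called lower in inhibitory labels (-0.76, adjusted p = 0.0490), and without nuclei with microglial UMIs Lgmn was called higher (0.75, adjusted p = 0.0464). The interval of Lamp2 was the narrowest of the 10, from -0.32 to 0.33, while those of Grn (-1.37 to 0.59), Ctsl (-1.17 to 0.53) and Ctsz (-1.12 to 0.76) leave room for differences of over 1 on the log2 scale.

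L5 PT neurons, the deep-layer projection neurons, were set against the L2/3 IT labels, the layer contrast the study turns on. Only Ctss was called, as lower in L5 PT (log2 fold change -1.54 ± 0.43, adjusted p = 0.0204), where 3.63% of all genes were called lower. Ctss was at 8.57 and 4.92 CPM in L5 PT, at 13.8 and 9.52 CPM in L2/3 IT CTX-1, and at 16.4 and 46.9 CPM in L2/3 IT CTX-2. The 46.9 CPM of the female L2/3 IT CTX-2 nuclei rested on 12 UMIs, and the 12 microglia markers there summed to 187 CPM, the highest of the neuronal values. Against L2/3 IT CTX-1 alone the call was lost (-0.79, adjusted p = 0.392), as it was without nuclei that held a microglia marker UMI (-1.84, adjusted p = 0.0531). Ctsb was at 68.6 and 56.1 CPM in L5 PT, the highest mean level outside microglia, but did not pass the test against L2/3 IT (0.59 ± 0.25, adjusted p = 0.182). With the profile of uncalled barcodes subtracted it was called higher (1.26, adjusted p = 0.0398). The profile was subtracted at 9.73% and 19.3% of its level in L2/3 IT CTX-2, against 7.55% and 4.74% in L5 PT. In L2/3 IT CTX-2 Ctsb was at 32.7 and 50.8 CPM before it, where 3 UMIs were 16.4 and 11.7 CPM.

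The Unknown nuclei, which carried neuron markers, had less Cd63 and Ctsb than the neuronal labels. Cd63 was at 10.6 and 4.41 CPM, the lowest mean of the 15 labels, and its log2 fold change was -1.36 ± 0.41 (adjusted p = 0.0106). Ctsb was at 27.6 and 22.7 CPM, also the lowest mean, with -0.63 ± 0.24 (adjusted p = 0.0461), and this call was lost in 6 alternatives at log2 fold changes from -0.80 to -0.48. The members called lower were 2 of 10, beside 12.6% of all genes tested.

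UMIs of microglial genes were also present in neuronal barcodes, so the members' neuronal levels were set beside those of the 12 microglia markers, which neurons should lack. The neuron subset also held 34 nuclei labelled Micro-PVM over all nuclei, and doublets were not called. The part of such nuclei in these levels was not tested. The markers summed in neurons to 2.78% and 2.32% of their microglial level, and single markers ran from 1.34% to 4.65% over both libraries. Ctss in neurons was at 2.09% and 1.80% of its microglial level, within the range of the markers, and Ctsz, at 4.49% and 3.70%, was within it too. Lgmn, at 5.30% and 4.35%, stood above the highest marker of its own library in both cases. The other members stood further above: Ctsd at 7.74% and 5.70%, Grn at 9.62% and 8.94%, Ctsb at 14.8% and 9.91%, Ctsl at 24.4% and 20.1%, Lamp2 at 25.1% and 22.1%, Lamp1 at 31.1% and 22.9% and Cd63 at 44.7% and 44.1%. The markers and the members differ, however, in how much of them lies outside nuclei. Set against the level in barcodes not called as nuclei (up to 100 UMIs), the neuronal level of the markers was 7.25% and 5.50%, that of Ctsd 8.26% and 5.94%, of Ctsz 8.44% and 6.06% and of Ctss 11.0% and 6.92%, while Grn was at 15.5% and 10.6%, Lgmn at 19.3% and 14.3% and the other 5 members between 20.9% and 63.2%. On this scale Ctsd, Ctsz and Ctss thus lay closest to the markers. In the 974 male and 819 female neuronal nuclei without any microglia marker UMI, Ctss was at 5.84 and 4.87 CPM, below the 17.8 and 14.2 CPM of neuronal nuclei with such a UMI. Ctsz had the same order, at 18.5 and 6.36 CPM without and 27.6 and 14.2 CPM with such a UMI. Ctsb, Ctsd and Cd63 had it too, by smaller ratios. Lgmn was level in the male library, at 38.2 CPM without and 38.4 CPM with such a UMI, and at 26.1 against 40.8 CPM in the female. Ctsl was nearly level, at 6.33 and 6.50 CPM without and 7.03 and 6.84 CPM with. Lamp1, Lamp2 and Grn did not follow the order in both libraries. The nuclei with a marker UMI were deeper, with a median of 4194.5 and 9932 UMIs against 3427.5 and 7823.

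**Figure D3:**
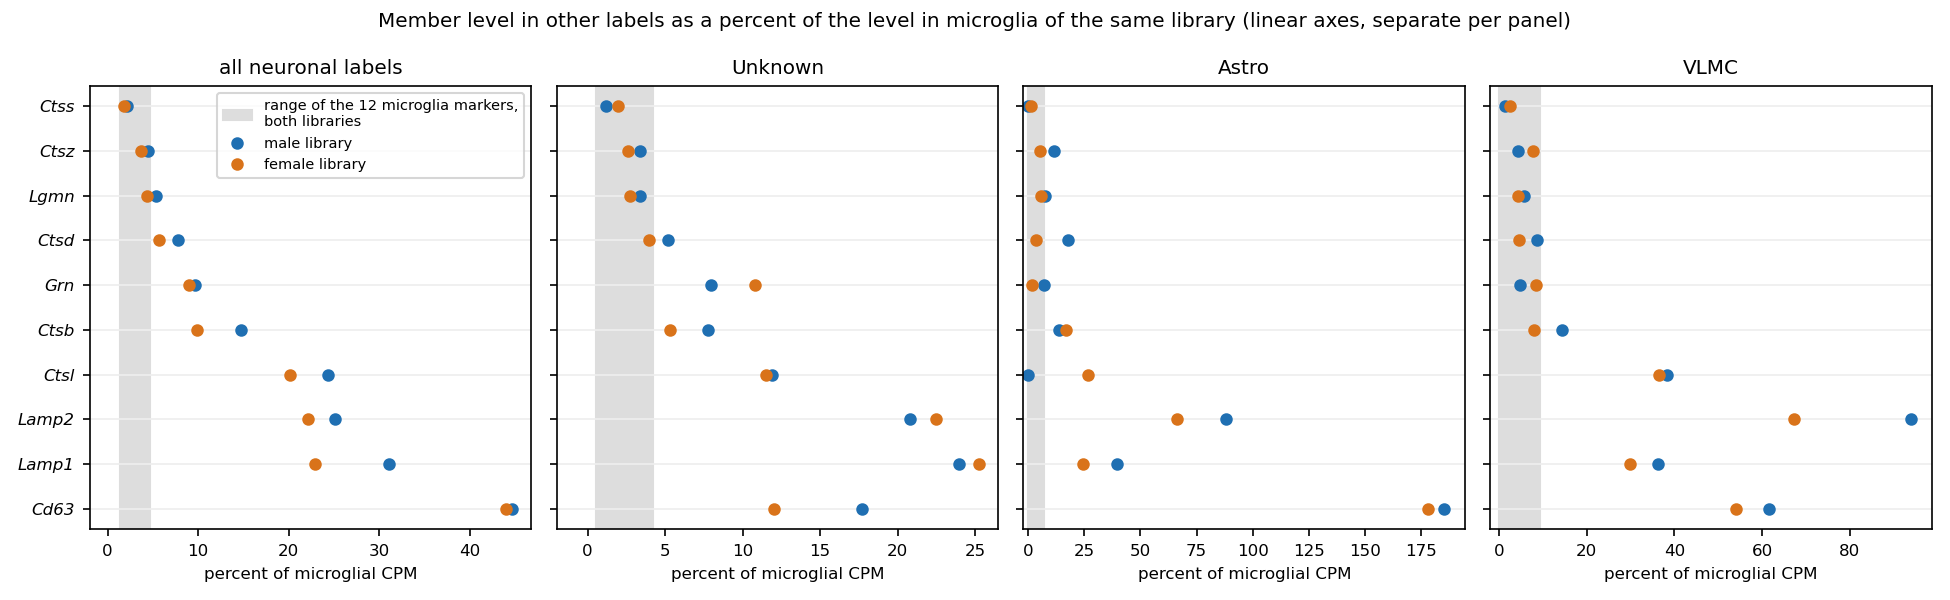
Level of each member in the pooled neuronal labels, Unknown, Astro and VLMC as a percent of its microglial level in the same library, with the range of the 12 microglia markers over both libraries in grey. In neurons Ctss and Ctsz lie within that range, Lgmn at its upper edge (above the highest marker of each library taken alone) and the other members above it.

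Shares of nuclei also set microglia apart from neurons at a matched depth. With each nucleus thinned to 1000 UMIs, which left out 453 male and 16 female microglia, Lgmn was detected in 49.2% and 46.3% of microglia and in 3.74% and 3.13% of neurons. Ctss was detected in 34.5% and 33.3% of microglia and in 0.998% and 0.994% of neurons, and Lamp2 in 18.1% and 19.5% against 5.12% and 4.91%. Without thinning Ctss was found in 43.8% of male (exact binomial 95% interval 41.4% to 46.2%) and 66.5% of female microglia (64.6% to 68.4%), and these intervals cover counting error only. At 1000 UMIs a microglial nucleus held a median of 2 of the 10 members and those of the other non-neuronal labels, Unknown and the pooled neuronal labels a median of 0. At least 1 member was seen in 93.4% and 90.7% of microglia and in 28.1% and 20.6% of neurons, and 3 or more in 43.3% and 32.1% against 0.549% and 0.452%.

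Other genes of the lysosome were taken from lists of 86 genes, of which 70 passed the filter. For these genes the filter was not examined without the microglial sums. Some may have passed it only through microglia, and the counts of calls below carry that limit. In microglia against neurons 52 were called higher and 3 lower, beside the same 33.2% and 26.8% of all genes. Among soluble hydrolases 28 of the 32 tested were higher and 0 lower, with a median log2 fold change of 2.14. Ctsh, an aminopeptidase of the cathepsin family, was at 135 and 131 CPM in microglia and 2.69 and 1.90 CPM in neurons (5.78 ± 0.26, adjusted p = 1.42e-17). Ctsc, which activates granule proteases, was at 132 and 104 CPM against 2.69 and 3.26 CPM, and Ctso at 24.1 and 16.4 CPM against 2.85 and 3.35 CPM. Both were called higher (adjusted p = 3.73e-15 and 2.19e-07), and no fold change is given for them because some label had 0 UMIs in both libraries.

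Of 17 membrane and transport genes tested 12 were higher and 1 lower, with a median of 1.11. Laptm5, a lysosomal membrane protein of blood-lineage cells, was at 256 and 180 CPM against 8.06 and 3.71 CPM (log2 fold change 5.39 ± 0.28). Scarb2, the receptor that carries glucocerebrosidase to the lysosome, was at 196 and 201 CPM against 31.6 and 29.7 CPM (2.59 ± 0.16). Slc11a1, the divalent metal transporter of phagosomes, was at 39.7 and 60.3 CPM against 0.168 and 0.815 CPM (adjusted p = 1.24e-10). The exception was Gnptg, a subunit of the enzyme that makes the mannose 6-phosphate tag, at 8.02 and 6.96 CPM against 17.0 and 21.5 CPM (-1.50 ± 0.35, adjusted p = 0.000438).

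Subunits of the V-ATPase, the proton pump that acidifies the lysosome, were split, with 8 of 16 higher, 1 lower and a median of 0.56. Atp6v1c1 was at 139 and 144 CPM against 40.3 and 36.6 CPM (2.04 ± 0.17), Atp6v1g1 at 20.9 and 16.0 CPM against 7.39 and 5.34 CPM (1.64 ± 0.37), and Atp6v0d2 at 7.22 and 29.5 CPM against 0.504 and 0.996 CPM (adjusted p = 2.15e-06). Atp6v1h was lower, at 116 and 93.0 CPM against 210 and 179 CPM (-0.66 ± 0.17, adjusted p = 0.00143). Of 5 inhibitors and regulators 4 were higher and 1 lower. The transcription factor Tfeb was at 158 and 173 CPM against 5.04 and 7.25 CPM (4.68 ± 0.24), its relative Mitf at 1310 and 1386 CPM against 146 and 138 CPM (3.48 ± 0.20), and Cst3, the secreted inhibitor cystatin C, at 376 and 116 CPM against 49.2 and 18.2 CPM (2.86 ± 0.33). Cstb, the cytosolic inhibitor cystatin B, was lower, at 5.61 and 7.21 CPM against 16.8 and 17.1 CPM (-0.96 ± 0.36, adjusted p = 0.0209).

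Within microglia the members varied between the deposited clusters to different degrees. The deposited clusters with at least 50 microglia in each library were 0, 1, 2, 5, 9 and 10, and since they were made from these counts their values are a description with no test. Ctsb differed widely between clusters 0 and 1, at 189 and 174 CPM in cluster 0 and 562 and 615 CPM in cluster 1, a ratio of 2.98 and 3.53. Cd63 had ratios of 3.02 and 1.23. The other members except Ctss were also higher in cluster 1 in both libraries, with ratios of 1.73 and 2.33 for Ctsd, 1.62 and 2.39 for Ctsl, 1.70 and 1.68 for Lamp1, 1.40 and 1.53 for Grn, 1.35 and 1.54 for Lamp2, 1.29 and 1.49 for Ctsz and 1.07 and 1.22 for Lgmn. Ctss was at 472 and 422 CPM in cluster 0 and at 417 and 423 CPM in cluster 1. Cluster 1 also had more Gpnmb and Apoe, genes of lipid-handling and disease-associated microglia, with ratios of 26.7 and 47.7 for Gpnmb and 1.92 and 3.26 for Apoe. It had less P2ry12, a purine receptor of resting microglia, with ratios of 0.602 and 0.639.

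**Figure D4:**
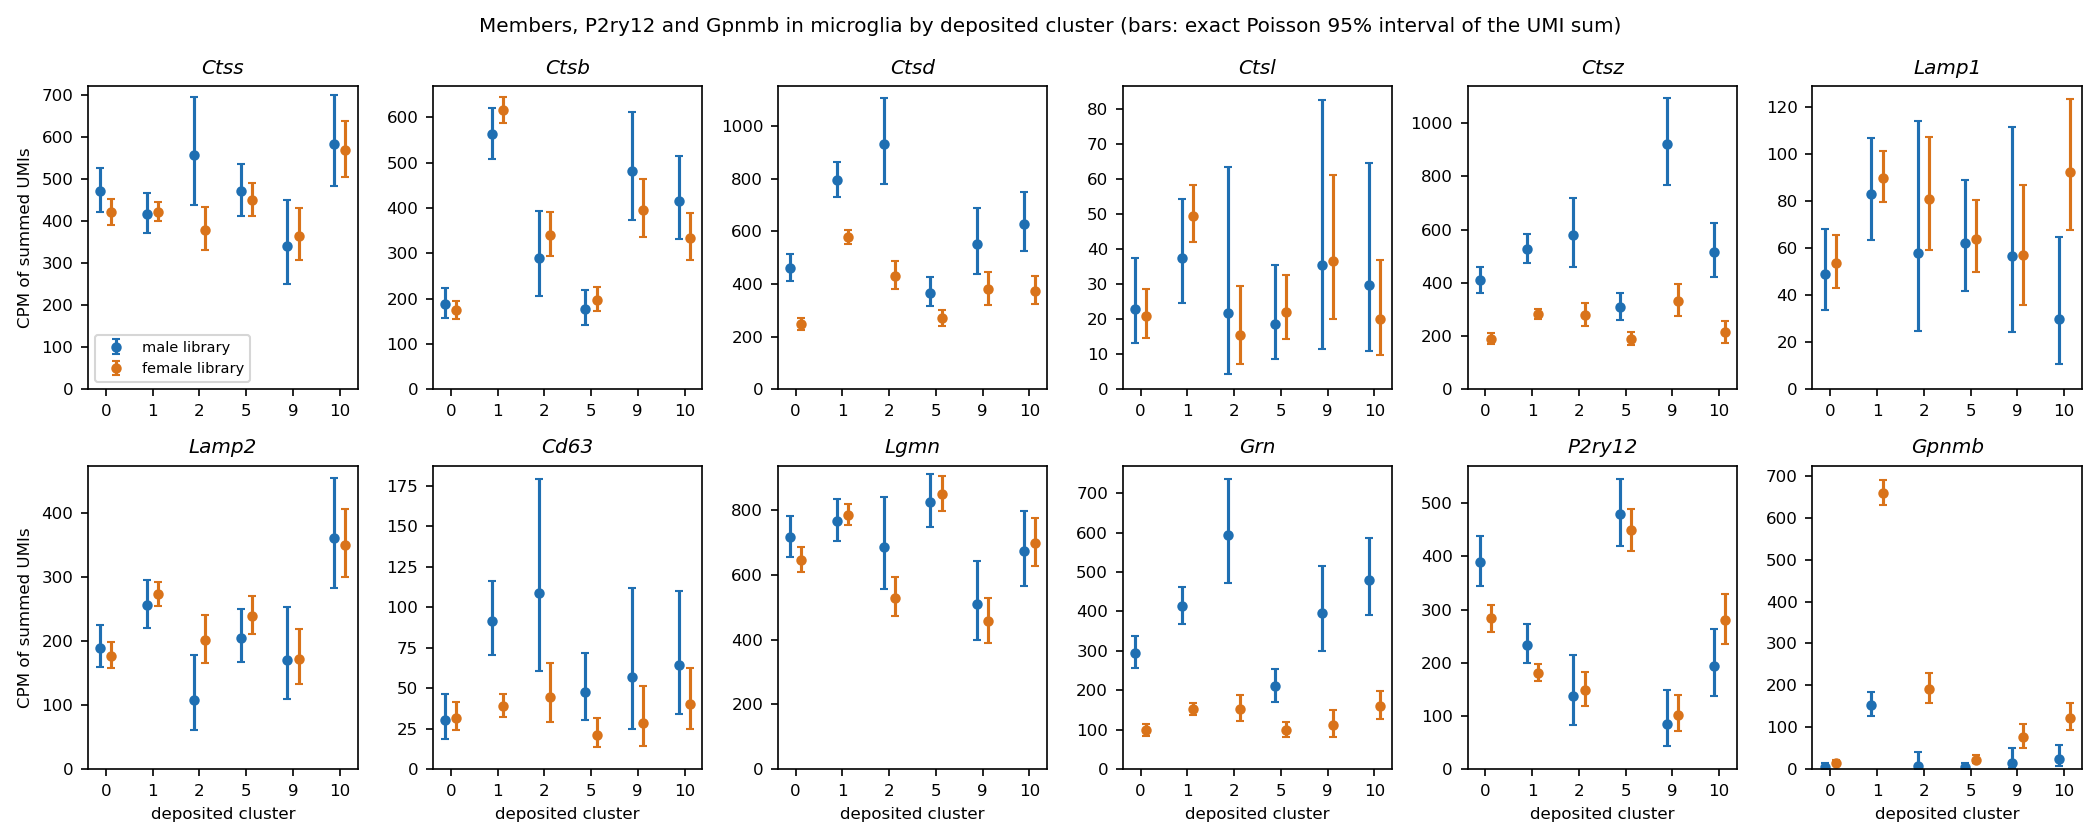
Level (CPM of summed UMIs, a separate axis for each gene) of the members, P2ry12 and Gpnmb in the deposited clusters of microglia, for the male and the female library, with exact Poisson 95% intervals that cover counting error only. Ctsb is highest in cluster 1, at 562 and 615 CPM, and lowest in clusters 0 and 5, among the 6 clusters with at least 50 microglia in each library, while Ctss runs from 340 and 365 CPM in cluster 9 to 584 and 570 CPM in cluster 10.

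Depth moved with this pattern between clusters 0 and 1, but not in cluster 5. Microglia of cluster 0 had a median of 1042.5 and 2368 UMIs, and those of cluster 1 a median of 1796.5 and 4101.5. Cluster 5 was deeper than cluster 1, at a median of 1943 and 4356 UMIs, with Ctsb at 176 and 198 CPM. Among all microglia split into 3 equal groups by depth, Ctsb was at 263, 329 and 408 CPM from the shallowest to the deepest male group and at 295, 366 and 510 CPM from the shallowest to the deepest female group. Among nuclei of 1500 to 3000 UMIs Ctsb was at 186 and 171 CPM in cluster 0 (49 and 536 nuclei, median 1592 and 2281.5 UMIs) and at 530 and 724 CPM in cluster 1 (244 and 111 nuclei, median 1988.5 and 2546 UMIs). In the same nuclei Cd63 was at 62.2 and 33.7 CPM in cluster 0 and at 83.7 and 53.3 CPM in cluster 1, and Lgmn at 559 and 644 CPM against 780 and 881 CPM. The part of depth in the differences between clusters was not tested. Microglia with an Atf3 UMI, which numbered 55 and 212, had 609 and 633 CPM of Ctsb against 344 and 401 CPM in those without, and were deeper, with a median of 1716 and 4030.5 UMIs against 1287 and 2936. Ctss did not share that order, at 249 and 443 CPM with and 468 and 442 CPM without an Atf3 UMI. Lgmn ran the other way in both libraries, at 591 and 655 CPM with and 729 and 721 CPM without an Atf3 UMI. Ctsd, Ctsz and Lamp1 had the order of Ctsb in both libraries, and Ctsl, Lamp2 and Cd63 did not. Grn was nearly level in the male library, at 351 CPM with and 347 CPM without an Atf3 UMI, and at 146 against 126 CPM in the female.

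Of the members 4 were higher in the male library relative to most genes, in microglia and in neurons alike. In microglia the male level was 2.70 times the female level for Grn, 1.96 times for Ctsz, 1.63 times for Cd63 and 1.43 times for Ctsd, and the other 6 lay between 0.777 and 1.04. Of the 7944 genes that reached 10 CPM in each of the libraries 99.3% had a lower ratio than Grn, 96.9% than Ctsz, 91.8% than Cd63 and 83.9% than Ctsd. At the other end Lamp1 (0.777), Ctsl (0.818) and Ctsb (0.830) were lower in the male library, with 5.85% of genes below Lamp1 and 8.11% below Ctsl. The median of these genes was 1.12. Neurons had the same 4 genes on top, with 2.90 for Grn, 2.38 for Ctsz, 1.95 for Ctsd and 1.66 for Cd63, beside a median of 1.09. With 1 library of each sex these are values of the libraries and were not tested.

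**Figure D5:**
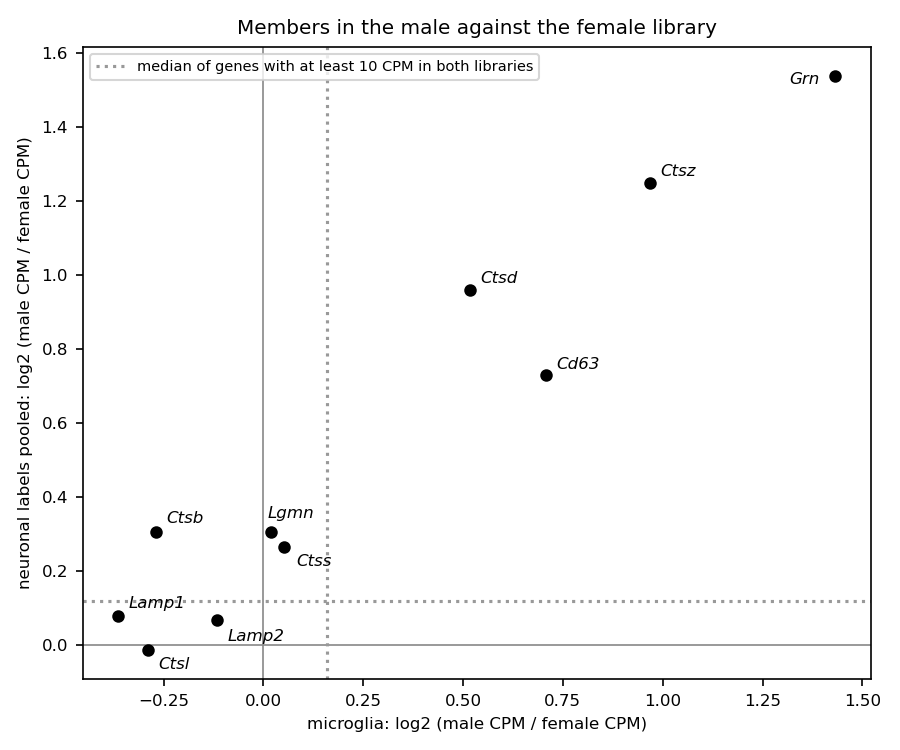
log2 ratio of the male to the female level of each member in microglia (horizontal axis) and in the pooled neuronal labels (vertical axis), with dotted lines at the median of all genes of at least 10 CPM. Grn, Ctsz, Cd63 and Ctsd lie above both medians.

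RNA outside nuclei was measured beside these levels. In barcodes not called as nuclei, with up to 100 UMIs, Cd63 was at 87.0 and 65.2 CPM, Ctsd at 557 and 398 CPM, Grn at 215 and 109 CPM and Ctsz at 253 and 148 CPM. For Cd63 this was 145% and 177% of the microglial level, for Ctsd 93.7% and 95.9%, for Grn 62.0% and 84.5% and for Ctsz 53.2% and 60.9%. The other members were at 66.6% and 47.6% (Lamp1), 51.8% and 47.4% (Ctsb), 45.1% and 51.7% (Lamp2), 38.5% and 56.3% (Ctsl), 27.5% and 30.4% (Lgmn) and 19.0% and 26.0% (Ctss), beside 38.4% and 42.2% for the 12 microglia markers together. The part of this RNA in the male and female levels was not tested.

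The genes whose levels over the 15 labels ran closest to Ctss, by Pearson's r of log2(CPM + 1) of the mean of the libraries, were Fcer1g (0.94), Selplg (0.93), Plcb2 (0.93), Slco2b1 (0.93) and Ccdc88b (0.92). Among the members Grn (0.90), Lamp1 (0.84) and Lgmn (0.84) came closest to Ctss and Cd63 (0.22) least. For Cd63 the closest genes were Gbp7 (0.93), Vim (0.89), Taf1d (0.88), Eml3 (0.88) and Gabarap (0.88), and the closest member was Lamp2 (0.75). The points share 2 libraries and differ in depth, and the microglial label weighs heavily in the first list.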

How the data were processed

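Single-nucleus libraries (10X Genomics 3′) of 2 pools of animals were analysed. CellRanger was run by the authors against GRCm38 with introns included, and the UMI counts were deposited raw, for called and for all barcodes. The headers of the called-barcode files name versions 7.0.1 and 7.0.0, those of all barcodes 4, and the submitters' processing notes 3.1.0 (mm10). The authors labelled nuclei with Seurat and MapQuery, and the deposited table gives the percent of mitochondrial UMIs of each nucleus, used in 1 alternative. Doublets were not called here. A deposited matrix of depth-corrected values was not used.

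Neuronal labels came from the neuron subset and other labels from all nuclei. In the subset 50 nuclei carry a non-neuronal label over all nuclei, 34 of them Micro-PVM, and were kept as neurons. Counts were summed per library and label and tested in R 4.3.3 with edgeR 4.0.16 (TMM, filterByExpr, quasi-likelihood test, Benjamini-Hochberg over 10642 genes) in 1 fit with the label as the only term. A gene was called at an adjusted p below 0.05. Every result is from 2 pools, so p-values measure the spread between these. That spread was estimated for each gene over all 15 labels, with the 30 sums taken as independent. It is not the spread of the contrasted labels alone. Each library holds the same pool in every label, and deviations from label means correlated between labels of 1 library (105 pairs, r from -0.0476 to 0.376, median 0.112), so a fit with the library as a replicate block was run. Log2 fold changes have SEs of unshrunken coefficients, and 95% intervals assume normal errors. Alternatives were DESeq2 1.42.0, no TMM, no filter, the replicate block, subtraction of the profile of uncalled barcodes, leaving out nuclei with a microglia marker UMI, limits of 6000 genes and 5% mitochondrial UMIs, labels with at least 20 nuclei and each library alone. Leaving out the shallow L2/3 IT CTX-2 and L6 IT labels was added after seeing the data.

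The members and all gene lists were chosen with earlier results of these data known. Named genes were all members, up to 3 called genes with the largest fold change in each direction per lysosome list, and the 5 closest to Ctss and to Cd63 by correlation.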

Additional observations from a re-analysis of the deposited data

Results flagged for a closer look

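Data outside the comparisons held the members well above the 310 and 221 CPM of the neuronal labels. Nuclei that carry a neuronal label over all nuclei but were left out of the neuron subset numbered 421 (male) and 152 (female). Their members summed to 2938 and 1651 CPM. Lgmn was at 408 and 286 CPM, Ctss at 281 and 242 CPM and Ctsd at 677 and 352 CPM. Their median depth was 681 and 911.5 UMIs, and they had 2043 and 1173 CPM of the 12 microglia markers beside 1040 and 820 CPM of 6 neuron markers.

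Barcodes not called as nuclei, with 1 to 100 UMIs, carried 1735 and 1437 CPM of the members. The microglia markers were at 1290.0 and 970 CPM there, and the neuron markers at 2495 and 2322 CPM.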

How the results depend on the processing

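The calls of microglia against neurons and against the other non-neuronal labels kept their direction and side of the threshold in every alternative that tested them. Ctsl was not in the fit when nuclei with microglial UMIs were left out (9 members, 9596 genes). The log2 fold change against neurons ran from 5.66 to 8.06 for Ctss, 4.64 to 7.52 for Ctsz and 3.72 to 7.26 for Ctsd. It ran from 4.12 to 5.12 for Lgmn, 3.29 to 4.36 for Grn and 2.83 to 3.70 for Ctsb. The highest value of each of these genes came with the uncalled profile subtracted. For Ctss, Ctsz and Ctsd that fit held a neuronal label without UMIs in both libraries, so their highest values give no size. Cd63 ran from 1.08 to 1.38. Each library alone entered as a value without a test. Calls in Unknown fell from 2 to 1 with no filter, with the uncalled profile subtracted, without nuclei with microglial UMIs, with limits on nuclei, with labels of at least 20 nuclei and, added later, without the shallow neuronal labels. Ctsb was the call lost each time, at log2 fold changes of -0.52, -0.80, -0.75, -0.63, -0.48 and -0.61 in that order beside -0.63 in the fit reported (adjusted p 0.0538 to 0.293), and the cause was not tested. Calls in L5 PT against L2/3 IT went from 1 to 2 with the uncalled profile subtracted (Ctsb gained, 1.26), to 0 without nuclei with microglial UMIs and to 0 without the shallow labels. Inhibitory against excitatory labels gave 1 call with the replicate block (Cd63) and 1 without nuclei with microglial UMIs (Lgmn, 0.75, adjusted p = 0.0464). Beside these and the Grn calls in VLMC and SMC-Peri the replicate block changed no member's call. The alternatives that changed a call in SMC-Peri or Oligo are given with those labels.

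The mean share of nuclei over the members moved with depth by construction. In microglia it was 23.9% and 20.4% at 1000 UMIs, 30.5% and 43.1% without thinning and 42.3% and 37.3% at 2300 UMIs, which left out 1496 of 1690 male and 649 of 2338 female microglia, and in neurons 3.29% and 2.35%, 11.4% and 15.7%, and 6.53% and 4.83% (385 of 1344 and 117 of 1155 left out at 2300 UMIs). The ratio of Ctsb between its highest and lowest microglial cluster rose from 3.19 to 4.76 in the male and from 3.53 to 5.00 in the female library once clusters with at least 20 microglia were let in, with cluster 13 then the highest at 840 and 871 CPM.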
